A study of Saccharomyces cerevisiae with 8 samples.

Results

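Loss of wobble uridine (U34) modification was followed in yeast cells that also lacked Hel2. The comparison was between the triple mutant ncs2Δelp6Δhel2Δ and the single mutant hel2Δ, both of the haploid laboratory strain BY4741 of Saccharomyces cerevisiae, and it took every gene of the deposited table. It used 4 of the 8 mRNA-sequencing libraries of the study, 2 per strain, chosen by their labelled genotype. The other 4 libraries, wild type and ncs2Δelp6Δ, show the same U34 loss with HEL2 present and are given beside it. Cultures of all strains were in YPD, the standard rich medium, kept at 30 °C and shaken, and poly(A) RNA was sequenced.

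Both strains of the comparison were MATa and carried his3Δ1, leu2Δ0, ura3Δ0 and a hel2 deletion marked with LEU2. The triple mutant carried in addition ncs2Δ marked with HIS3MX and elp6Δ marked with URA3. Wild type had none of these deletions and was met15Δ0. ncs2Δelp6Δ had the HIS3MX and URA3 deletions and an intact HEL2. The met15Δ0 allele stood only in the wild-type label, although hel2Δ libraries had no MET17 counts either. MET15 is another name of MET17.

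U34 is the first anticodon base of several tRNAs. The Elongator complex, of which Elp6 is a subunit, starts a side chain on this base, and the Urm1 pathway, in which Ncs2 acts, adds sulfur to it in tRNAs for lysine, glutamine and glutamate. Without these modifications the matching codons can be read slowly, ribosomes can collide and proteins can aggregate. Hel2 puts ubiquitin on ribosomes that have collided and so opens ribosome-associated quality control. The heat shock factor Hsf1 drives chaperone genes when misfolded protein accumulates, Msn2 and Msn4 drive general stress genes, and Pho4 drives phosphate genes when phosphate is scarce.

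Counts of HEL2, NCS2 and ELP6 matched the labelled deletions. HEL2 had 0 and 0 counts in hel2Δ and 0 and 1 in the triple mutant, against 1893 and 1246 in wild type. NCS2 had 688 and 945 counts in hel2Δ and 0 and 3 in the triple mutant, and ELP6 had 1147 and 1437 against 0 and 1. HIS3 gave no such check, since hel2Δ, labelled his3Δ1, had transcripts of it. It was at 175 and 180 CPM (counts scaled to a common library size and corrected for composition) in hel2Δ and at 272 and 249 in the triple mutant. MET17, the enzyme that makes homocysteine from sulfide, had 0 and 0 counts in hel2Δ and 5918 and 6651 in the triple mutant, at least 1680-fold higher against a floor of 3 counts in a library. ncs2Δelp6Δ also expressed MET17, at 4321 and 5084 counts, and wild type had 6 and 1. Changes that come with MET17, with the URA3 or HIS3MX marker and with U34 loss cannot be told apart in this design. LEU2 and URA3 were not analysed here. Total counts were 20523166 and 22477796 in hel2Δ and 23941037 and 23338892 in the triple mutant. Replicates correlated at r = 0.991 and 0.992 across genes and differed by more than counting noise.

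Some of the genes that changed hold known motifs in their upstream DNA, and stretches of it are shown for members of the heat shock, general stress and phosphate groups described below. CTT1, HSP78, RPN4 and PHO81 among them were not in the 15 largest rises or falls. SSA3, HSP30, IMD2 and SPG4 of the largest rises and NDJ1, TIR1, HXT4, URA1 and MRH1 of the largest falls held none of the 4 motifs searched. This holds for the motifs as defined here, and sites that depart from these definitions were not searched for. All were read from assembly R64, the assembly that sacCer3 copies, between 500 and 150 nt before the start codon. They run 5′ to 3′ towards the gene, and the motif is in capitals. The first set has the heat shock element, taken here as 3 alternating TTC and GAA units with 2 bases between units. In HSP42 (chrIV:806373-806400, plus strand), BTN2 (chrVII:772105-772132, plus strand) and HSP78 (chrIV:974468-974495, minus strand) the capitals hold 2 overlapping matches. RPN4 (chrIV:417039-417061, minus strand) has 1 match in the stretch.
HSP42: aaaagTTCTGGAAGGTTCGCGAAttgag
BTN2: tttttTTCTAGAAAGTTCCGGAAaattg
HSP78: ttattTTCCAGAATGTTCTAGAAgtgtt
RPN4: gatggTTCTAGAAAGTTCcgttt
The second set has the stress response element CCCCT, bound by Msn2 and Msn4, in HSP26 (chrII:381546-381578, plus strand), HSP12 (chrVI:107019-107075, plus strand), DDR2 (chrXV:231921-231963, minus strand) and CTT1 (chrVII:654251-654280, plus strand, where it reads as its complement).
HSP26: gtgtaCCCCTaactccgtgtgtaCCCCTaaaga
HSP12: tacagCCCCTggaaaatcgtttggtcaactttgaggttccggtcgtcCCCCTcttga
DDR2: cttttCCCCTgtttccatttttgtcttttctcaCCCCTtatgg
CTT1: tttcaAGGGGatcaccggtaAGGGGccaag
The third set has CACGTG, the core of Pho4 sites, in genes that were lower in the triple mutant. It stands in PHO84 (chrXIII:26204-26241, minus strand), VTC3 (chrXVI:517319-517368, minus strand), SPL2 (chrVIII:375451-375466, minus strand) and PHO81 (chrVII:958544-958559, minus strand).
PHO84: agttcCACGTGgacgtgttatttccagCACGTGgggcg
VTC3: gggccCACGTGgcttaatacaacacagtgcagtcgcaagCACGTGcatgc
SPL2: ttgctCACGTGaccga
PHO81: tatggCACGTGcgaat

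Many genes differed between the strains, most of them by small amounts. Of 6087 genes tested, 1754 (28.8%) were called at an adjusted p under 0.05, of which 917 (15.1%) were higher in the triple mutant and 837 (13.8%) lower. Past a log2 fold change of 1, 137 genes (2.25%) were higher and 90 (1.48%) lower. The 2 libraries of one strain lay entirely above the 2 of the other for 4030 genes (66.2%), so separation of the libraries alone says little about a gene. Without hel2Δ replicate 2 the calls were 547 higher and 514 lower, and without triple-mutant replicate 1 they were 498 and 406. The median log2 fold change of all genes was 0.0034. Scaling by library totals moved this median to 0.105 and the calls to 1389 higher and 521 lower. List medians below are given as fitted, to be set beside that of all genes. In the plot of fold change against level, the heat shock genes stood far above genes of like level, and PHO84, SPL2 and PHO12 far below.

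**Figure D1:**
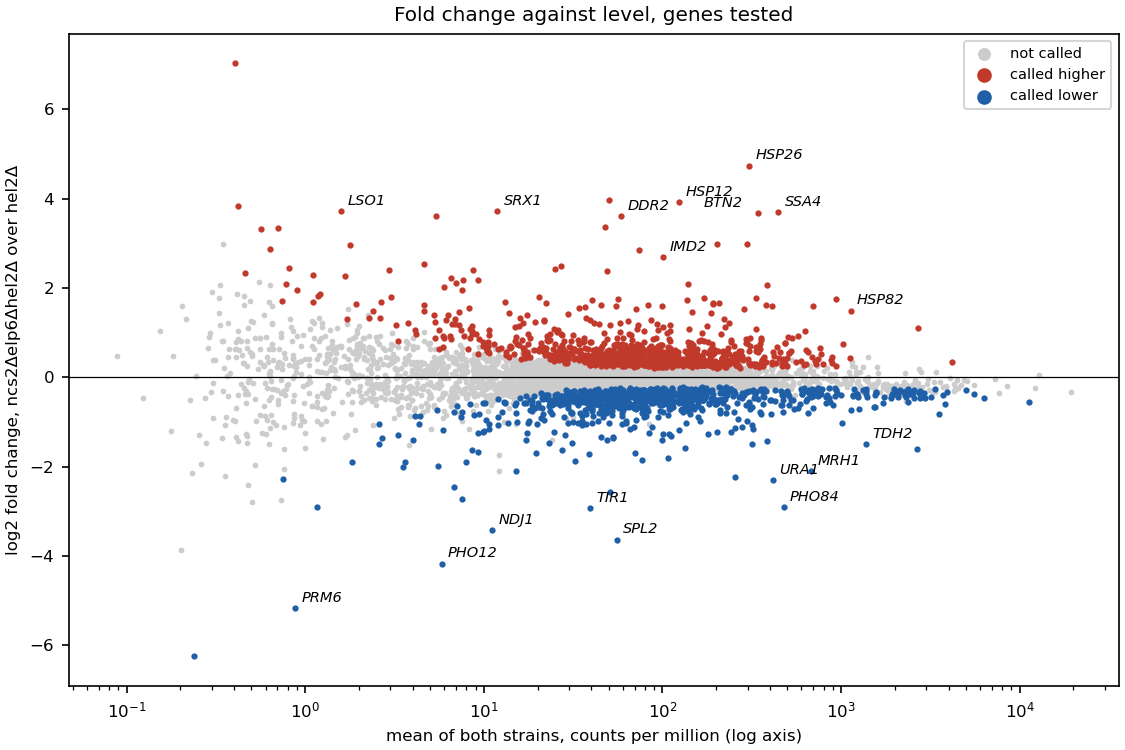
Log2 fold change of the triple mutant over hel2Δ (vertical axis) against the mean level of both strains in CPM (log axis), one point per gene tested, without MET17 and the deleted genes. Red points are the genes called higher, blue those called lower and grey those not called. HSP26 is at 4.74 and PHO12 at -4.17.

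Small heat shock proteins and aggregate-handling factors gave the largest rises. All 8 tested members of this list rose, 7 of them past a log2 fold change of 1, with a median of 2.91. HSP26 (chrII:382030-382674, plus strand), a small heat shock protein that holds unfolded proteins, was at 22.6 and 21.7 CPM in hel2Δ and at 627 and 556 in the triple mutant. It rose 26.7-fold, a log2 fold change of 4.74 ± 0.12 (SE; adjusted p = 1.99e-08). HSP12, a membrane-associated stress protein, was at 15.03 and 15.57 CPM in hel2Δ and at 239 and 227 in the triple mutant, a log2 fold change of 3.93 ± 0.10 (adjusted p = 1.99e-08). For both genes the hel2Δ libraries lay below all other libraries of the study and the triple-mutant libraries above them. BTN2, a sequestrase that gathers misfolded proteins, rose from 53.9 and 45.9 CPM to 686 and 583, a log2 fold change of 3.67 ± 0.15. HSP42, the other small heat shock protein with a sorting role, rose from 69.6 and 64.2 CPM to 565 and 494, a log2 fold change of 2.99 ± 0.10. The disaggregase HSP104 rose by 1.76 on the log2 scale, HSP31 by 1.54 and the plasma membrane protein HSP30 by 2.84. CUR1, the sequestrase related to Btn2, had the smallest rise of the list at 0.59.

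**Figure D2:**
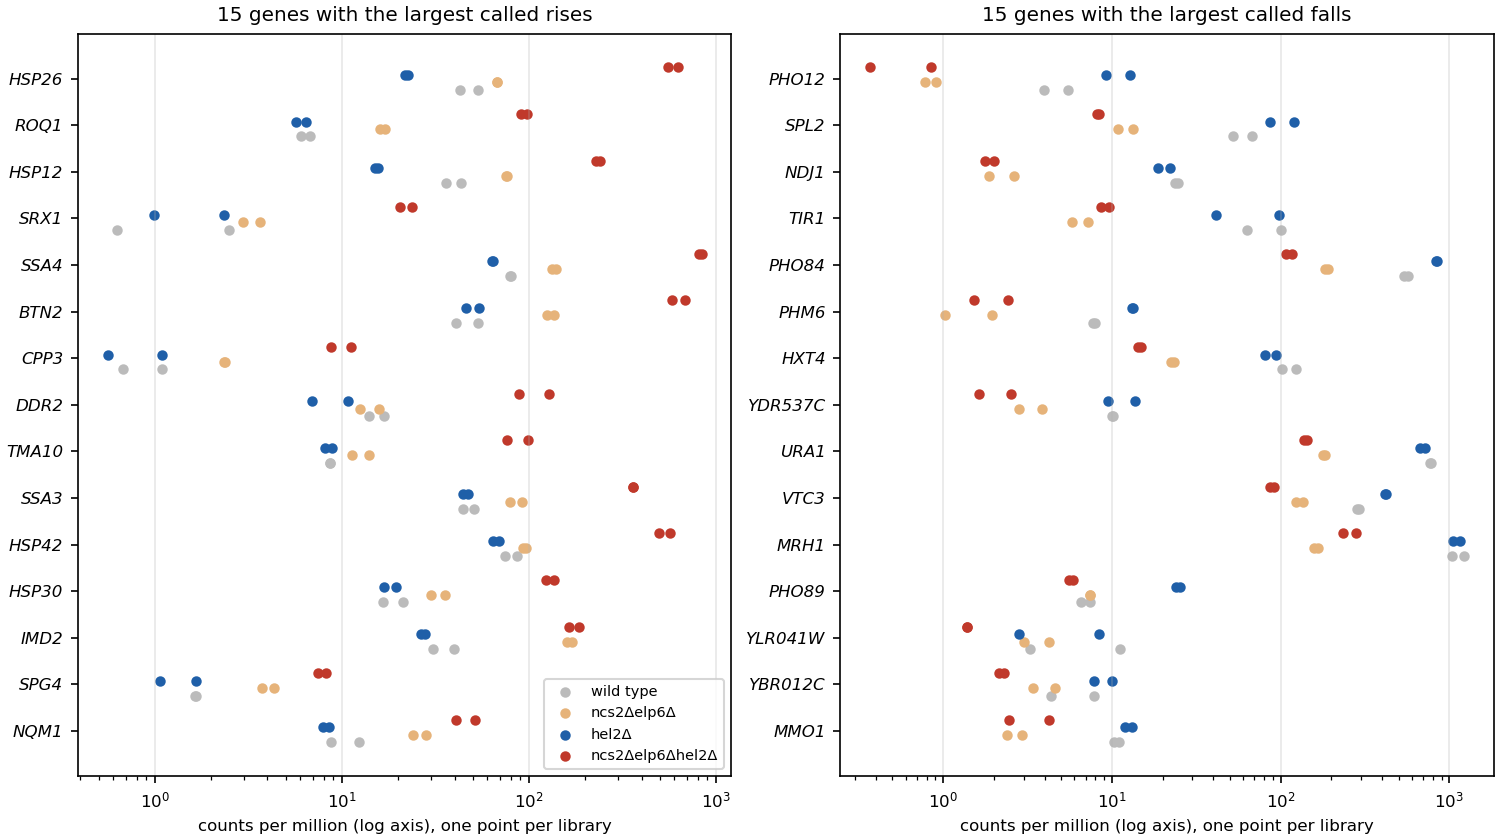
Level of the 15 largest called rises and the 15 largest called falls in CPM (log axis), one point per library, 2 libraries per strain. HSP26 and HSP12 are lowest in hel2Δ (blue) and highest in the triple mutant (red), while URA1, NDJ1 and IMD2 lie close together in the triple mutant and ncs2Δelp6Δ (orange).

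Among the Hsp70 genes the stress-induced members rose and the ribosome-bound ones fell. SSA4 was at 63.80 and 63.97 CPM in hel2Δ and at 816 and 838 in the triple mutant, a 12.95-fold rise (log2 value 3.69 ± 0.07, adjusted p = 5.17e-09). SSA3 was at 47.1 and 44.2 CPM and then at 361 and 362, a rise of 2.99 ± 0.10. The replicates of these genes were closely matched and the strains far apart. The Hsp110 gene SSE2, a nucleotide exchange factor of Hsp70, rose by 1.73, and SSA1 rose by 0.57. SSB1, SSB2 and SSZ1, which act on nascent chains at the ribosome, fell by 0.35, 0.40 and 0.35. Over the 10 genes of this list 4 rose and 3 fell, with a median of 0.15.

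The rise continued through Hsp90 and the mitochondrial disaggregation system, but in fewer members. HSP82, the inducible Hsp90, rose from 625 and 566 CPM to 1742 and 1609, a log2 fold change of 1.49 ± 0.10 (adjusted p = 5.94e-06). Its constitutive partner HSC82 rose by 0.35 and the co-chaperone STI1 by 0.64, whereas the phosphatase PPT1 fell by 0.37, and 8 of the 12 genes of the Hsp90 list were not called. FES1, an Hsp70 exchange factor, rose from 144 and 142 CPM to 319 and 340 (log2 fold change 1.20 ± 0.08), the J-domain gene APJ1 by 1.18 and YDJ1 by 0.41. The J-domain list had 3 genes higher and 2 lower of 12. HSP78, the mitochondrial disaggregase, rose from 153 and 142 CPM to 618 and 622, a log2 fold change of 2.08 ± 0.08. MDJ1 and the protease PIM1 rose by 1.15 and 0.52, and 6 of 14 genes of the mitochondrial list rose and none was called lower.

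The endoplasmic reticulum list held more called falls than rises, and the TRiC and prefoldin list stood near all genes. In the endoplasmic reticulum list 3 of 17 genes rose and 6 fell, with a median of -0.18. The Hsp70 gene KAR2 rose by 0.43, while EUG1, a protein disulfide isomerase, fell by 0.68 and the exchange factor SIL1 by 0.57. Of 14 genes of the TRiC chaperonin and prefoldin, 1 was called higher and 2 lower (14.3%, against 13.8% of all genes). Their median was 0.004. CCT3 rose by 0.35, and the prefoldin genes GIM4 and GIM5 fell by 1.18 and 0.67.

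Core targets of Hsf1 were higher as a list. Of 19 genes 14 were called higher, 8 of them by more than 1 on the log2 scale, and none was called lower. The median was 0.59. The 5 not called were HCH1, AHA1, CPR6, SIS1 and SSA2, between -0.09 and 0.18. This list shares genes with the chaperone lists above and is no separate evidence. The HSF1 transcript itself rose by 0.33.

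Genes of the Msn2/Msn4 type, which answer many stresses, rose in the larger part of their list. Of 40 genes, 28 rose (14 by more than 1 on the log2 scale), 2 fell and the median was 0.52. DDR2, a small stress protein, was at 6.92 and 10.8 CPM in hel2Δ and at 128 and 89.0 in the triple mutant, a log2 fold change of 3.60 ± 0.24 (adjusted p = 6.60e-06). TMA10, a ribosome-associated protein, rose from 8.84 and 8.16 CPM to 98.5 and 76.2, a log2 fold change of 3.36 ± 0.16. The 2 triple-mutant libraries of these genes differed from each other more than those of the Hsp70 genes, and both lay far above hel2Δ. CTT1, the cytosolic catalase, rose by 1.75, NQM1, a transaldolase, by 2.49, RTC3 by 1.66 and SPI1, a cell wall protein, by 2.38. The 2 that fell were YGP1 (by 0.71) and the glycogen phosphorylase GPH1 (by 0.55). MSN4 transcripts rose by 1.03, and those of MSN2 had a log2 fold change of 0.02 and were not called. Trehalose and glycogen genes did not move as one. TSL1 and NTH1 rose by 0.60 and 0.79, and of 20 such genes 5 rose and 4 fell.

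Outside the chaperone and general stress lists, other members of the 15 largest rises had various roles. ROQ1, whose product redirects the ubiquitin ligase Ubr1 during stress, rose from 5.67 and 6.43 CPM to 91.1 and 98.1, a log2 fold change of 3.96 ± 0.12. SRX1, sulfiredoxin, rose from 0.988 and 2.33 CPM to 23.9 and 20.5 (3.72 ± 0.45), and its hel2Δ libraries differed more than 2-fold. IMD2, an IMP dehydrogenase of guanine nucleotide synthesis, rose from 27.9 and 26.5 CPM to 164 and 185 (2.68 ± 0.12). CPP3 and SPG4 rose by 3.60 and 2.53, each from below 2 CPM in both hel2Δ libraries. SRX1, CPP3 and SPG4 passed the minimum of 5 CPM only in the triple mutant. In the oxidative stress list 7 of 28 genes rose and 3 fell. OYE3, an NADPH oxidoreductase, rose by 2.43, and the thioredoxin gene TRX1 fell by 0.78.

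Proteasome genes rose together by modest amounts. Of 36 genes, 25 rose and 1, RPN5, fell, and the median was 0.42. RPN4, the transcription factor of these genes, rose from 129 and 126 CPM to 316 and 318, a log2 fold change of 1.31 ± 0.09 (adjusted p = 1.16e-05). RPT2, an ATPase of the regulatory particle, rose by 0.92 and PRE3, a catalytic subunit, by 0.86. Among 23 stress and nutrient transcription factors, XBP1, a stress-induced repressor, had the largest rise, 1.55 ± 0.16.

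Iron genes were higher than in hel2Δ, where the 3 most changed of them stood below wild type. In the iron list 13 of 29 genes (44.8%) rose and 3 fell, with a median of 0.29. FIT2, a cell wall mannoprotein that holds siderophores, rose from 45.0 and 60.7 CPM to 204 and 248, a log2 fold change of 2.09 ± 0.17, and FIT3 rose by 1.59 ± 0.33, with hel2Δ libraries at 30.0 and 68.8 CPM. LSO1 had 0.052 and 0.373 CPM in hel2Δ and 3.12 and 2.84 in the triple mutant. Wild type had 179 and 137 CPM of FIT2, 121 and 171 of FIT3 and 2.24 and 2.41 of LSO1. The FIT3 libraries of the triple mutant, at 139 and 159 CPM, thus lay within the wild-type range. The autophagy list stood near all genes, with 6 of 31 genes higher (19.4%), 4 lower (12.9%) and a median of -0.099. Its largest changes were rises, in ATG39, a receptor for nuclear autophagy, by 1.62, ICY2 by 1.57 and ATG8 by 1.06.

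Among amino acid genes, arginine synthesis had rises and no called falls. Of 13 arginine genes 7 rose. ARG4, argininosuccinate lyase, rose from 197 and 210.3 CPM to 609 and 622, a log2 fold change of 1.596 ± 0.08 (adjusted p = 1.15e-06), and ARG7 rose by 1.12. Among 47 other biosynthetic genes under Gcn4, 18 rose and 8 fell. LYS1 rose from 90.8 and 97.6 CPM to 287 and 298 (1.63 ± 0.08), ARO9, an aromatic aminotransferase, by 1.66, and the chorismate mutase gene ARO7 fell by 1.03. The GCN4 transcript was not called (-0.09). BAT2, the cytosolic branched-chain aminotransferase, fell by 1.49, LEU4 rose by 0.56 and OAC1 fell by 0.41. Of 36 sulfate and methionine genes 4 rose and 10 fell. The methionine synthase gene MET6 fell by 0.94, MET31 fell by 0.83 and the permease gene MUP3 rose by 0.96. These genes lie in the pathway of MET17, which moved with the strains as given above, and its part in these changes was not tested. Among 22 permeases PUT4 rose by 0.87 and DIP5 fell by 0.82.

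Among the 39 lists, the phosphate genes had the most falls past a log2 fold change of 1. Of 26 genes of phosphate uptake and polyphosphate synthesis 17 fell, 11 of them past a log2 fold change of 1, and 2 rose. The median was -0.59. PHO84 (chrXIII:24037-25800, minus strand), the high-affinity phosphate transporter, was at 834 and 851 CPM in hel2Δ and at 117 and 107 in the triple mutant. It was 7.503-fold lower, a log2 fold change of -2.91 ± 0.08 (adjusted p = 1.99e-08). SPL2, which restrains low-affinity phosphate uptake, was at 119 and 86.6 CPM and then at 8.13 and 8.42, a log2 fold change of -3.64 ± 0.19. In both genes the drop was many times the spread between replicates. The sodium-coupled transporter PHO89 fell from 23.9 and 25.4 CPM to 5.58 and 5.92 (-2.10 ± 0.16). VTC3, a subunit of the vacuolar polyphosphate polymerase, fell from 414 and 423 CPM to 91.4 and 86.7 (-2.23 ± 0.08), and VTC4 and VTC1 fell by 1.42 and 1.17. The acid phosphatase PHO12 fell by 4.17 ± 0.39, PHO11 by 2.90 and PHO5 by 1.69. PHO11 and PHO12 are near-identical, so how reads were split between them is uncertain. PHM6 fell by 2.74, and PHO81, the inhibitor of the Pho80-Pho85 kinase, by 1.11. PHM7 and PHM8 rose, by 1.07 and 0.89. PHO4 itself had a log2 fold change of -0.47 and was not called.

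**Figure D3:**
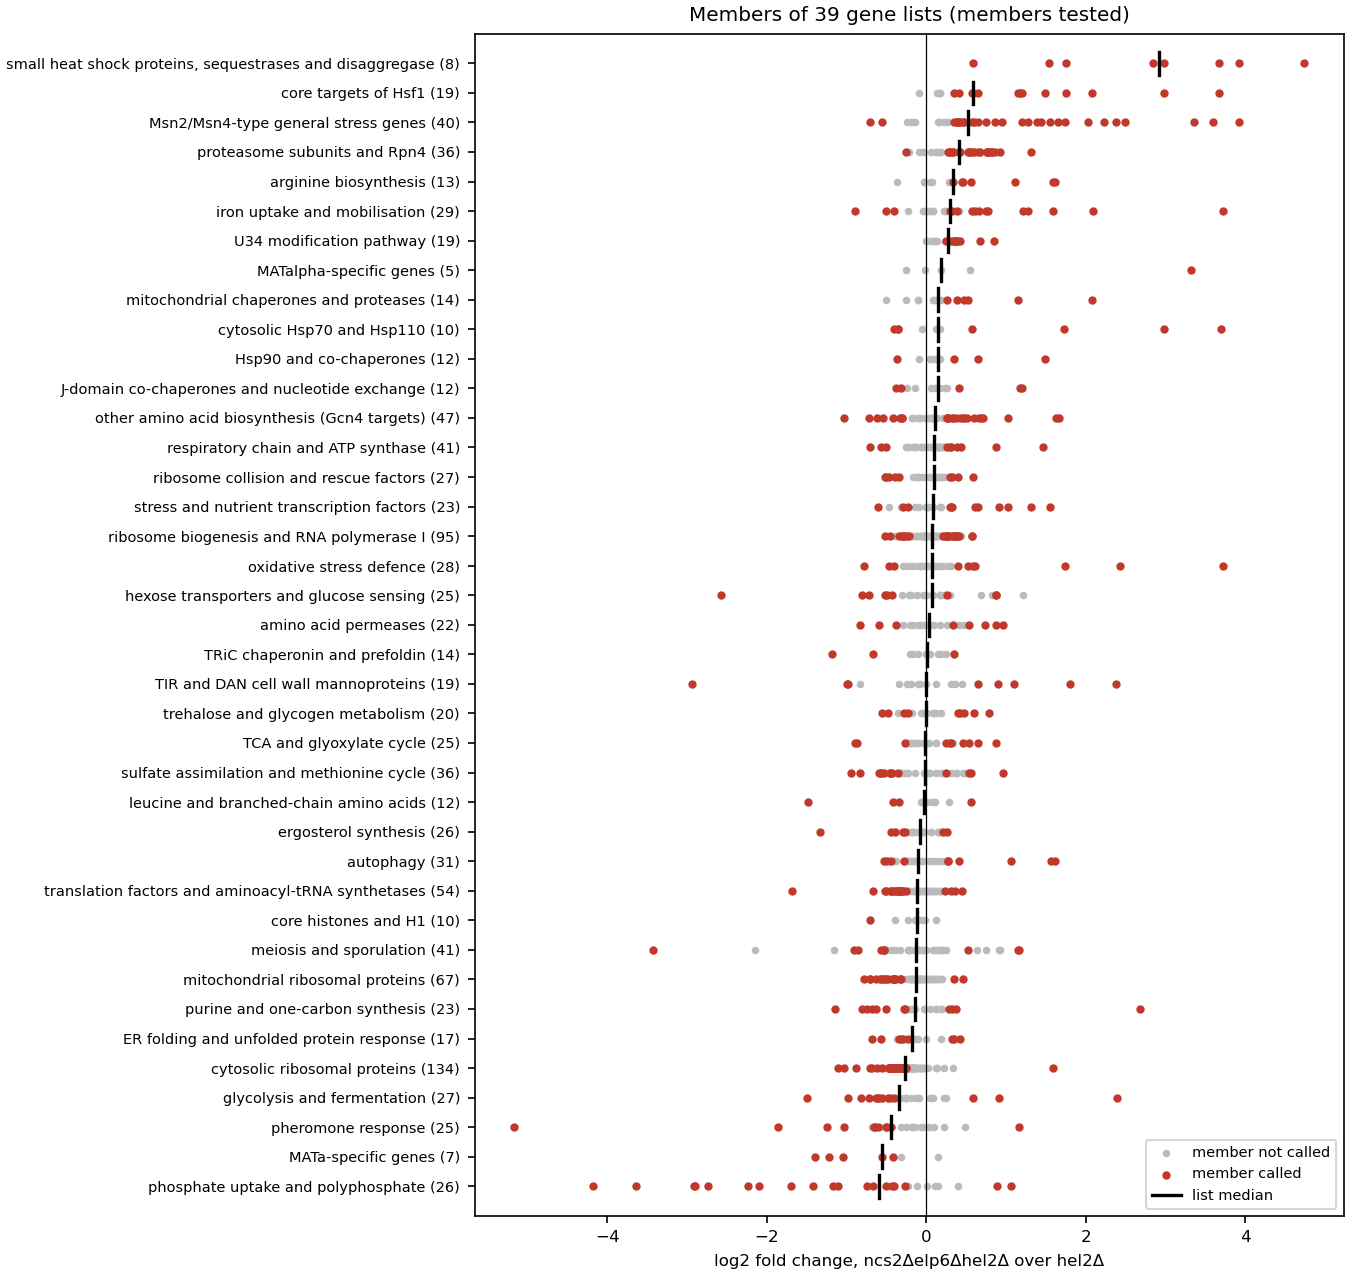
Log2 fold change of the triple mutant over hel2Δ for the tested members of 39 gene lists, one point per gene, red where the gene was called and grey where not, with the list median as a black bar and the number tested in brackets. The list of small heat shock proteins has its median at 2.91 and the phosphate list at -0.59, and most other medians lie close to 0.

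The other large falls were in single genes of separate processes. URA1, dihydroorotate dehydrogenase of pyrimidine synthesis, was at 673 and 720 CPM in hel2Δ and at 138 and 143 in the triple mutant, a log2 fold change of -2.31 ± 0.07 (adjusted p = 4.86e-08). URA4 of the same pathway, named after its values were seen, fell by 1.23. The triple mutant carries URA3 and hel2Δ does not, so this difference cannot be told apart from U34 loss. NDJ1, which attaches telomeres in meiosis, fell from 18.7 and 22.2 CPM to 2.01 and 1.78 (-3.43 ± 0.21). TIR1, a cell wall mannoprotein, was at 41.2 and 97.9 CPM in hel2Δ and at 9.60 and 8.63 in the triple mutant (-2.93 ± 0.38), so the size of its fall was uncertain. The hexose transporter HXT4 fell from 80.4 and 93.9 CPM to 14.9 and 14.4 (-2.58 ± 0.12), and MRH1, a plasma membrane protein, from 1056 and 1158 to 236 and 281 (-2.10 ± 0.11). YDR537C, YLR041W, YBR012C and MMO1 completed the 15, with falls of 2.47, 2.01, 1.99 and 1.90. Among the 15, PHO12, NDJ1, PHM6, YDR537C, YLR041W, YBR012C and MMO1 passed the minimum of 5 CPM only in hel2Δ. For YLR041W the libraries of that strain stood at 2.81 and 8.44 CPM and the adjusted p was 0.0424.

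Mating genes were lower. Of 7 genes specific to MATa cells 5 fell, with a median of -0.56, and of 25 pheromone response genes 10 fell and 1 rose. AGA1, the anchor of the a-agglutinin, fell from 106 and 134 CPM to 31.32 and 34.95 (log2 fold change -1.86 ± 0.14), its partner AGA2 by 1.04, ASG7 by 1.39 and BAR1, the protease that degrades alpha-factor, by 1.21. PRM7 fell by 1.25. PRM6 had 32 and 38 counts in hel2Δ and 0 and 2 in the triple mutant, a ratio of 41.3 with a 95% counting interval of 11 to 348. MF(ALPHA)1, which encodes alpha-factor and is normally silent in MATa cells, had 1 and 3 counts in hel2Δ and 36 and 14 in the triple mutant, a ratio of 10.6 (3.89 to 40.4). The other 4 genes specific to MATalpha cells were not called.

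Genes of the translation apparatus were slightly lower. Of 134 cytosolic ribosomal protein genes 52 fell and 1 rose, with a median of -0.27. RPS9A was at 418 and 340 CPM in hel2Δ and at 175 and 177 in the triple mutant (log2 fold change -1.11 ± 0.11), and RPL8A fell by 1.03. RPL8A has a near-identical copy, RPL8B, and its counts are uncertain. The 1 that rose was RPS14B, from 376 and 323 CPM to 1020 and 1080 (1.59 ± 0.10). In mitochondrial ribosomal proteins 18 of 67 genes fell and 2 rose, MRP2 by the largest amount (0.78). Of 54 translation factors and aminoacyl-tRNA synthetases 17 fell and 4 rose. ANB1, the hypoxic form of eIF5A, fell by 1.68, and EFT1 and EFT2, near-identical copies for elongation factor 2, fell by 0.51 and 0.67. Ribosome biogenesis genes did not follow. Of 95 such genes 18 rose (18.9%, against 15.1% of all genes) and 9 fell (9.47%, against 13.8%), with a median of 0.079. UTP18 and DBP8 were each higher by 0.57 and KRR1 was lower by 0.51.

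Central carbon genes were lower in glycolysis. Of 27 glycolytic and fermentation genes 11 fell and 3 rose, with a median of -0.34. TDH2, a glyceraldehyde-3-phosphate dehydrogenase with a near-identical copy in TDH3, fell from 1891 and 2199 CPM to 640 and 811 (log2 fold change -1.50 ± 0.14), and TDH1 fell by 0.98. PDC6, a minor pyruvate decarboxylase, rose by 2.40 from a level below 1 CPM. In the TCA and glyoxylate list 7 of 25 genes rose and 3 fell, with a median of -0.009, and MDH2 and CIT2 were among those that fell, by 0.89 and 0.86. Respiratory genes had 7 of 41 higher (17.1%, against 15.1% of all genes) and 3 lower (7.32%, against 13.8%). Among them CYC7 was higher by 1.46 and NDE1 by 0.88, and ATP16 was lower by 0.70.

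The remaining pathway genes of the U34 system rose by small amounts. Of 19 genes, 11 rose and none was called lower, with a median of 0.27. IKI1, an Elongator subunit, rose from 63.4 and 62.8 CPM to 117 and 110 (log2 fold change 0.85 ± 0.09), and UBA4, the activating enzyme of Urm1, by 0.68. Factors of ribosome collision and rescue had 4 of 27 higher (14.8%) and 5 lower (18.5%), near the 15.1% and 13.8% of all genes. MBF1, which prevents frameshifts at collided ribosomes, rose by 0.59, and the ubiquitin ligase gene RKR1 and the nuclease gene CUE2 fell by 0.52 and 0.51.

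The last lists had few large changes. In purine synthesis 4 of 23 genes rose and 8 fell, with ADE1 lower by 1.15 and ADE17 by 0.81. In the hexose transporter list 3 of 25 rose and 6 fell, with HXT5 and HXT11 both higher by 0.88, where HXT11 has a near-identical copy in HXT9. Of 19 cell wall mannoprotein genes 5 rose and 3 fell, and PIR3 rose by 1.80. In ergosterol synthesis ERG28 fell by 1.33, HMG2 by 0.45 and ERG20 by 0.40, with 2 of 26 genes higher and 5 lower. Of 41 meiosis and sporulation genes 3 rose (7.32%, against 15.1% of all genes) and 6 fell (14.6%, against 13.8%). The spore wall gene DIT1 and the kinase gene SPS1 both rose by 1.16. Among 10 histone genes the variant HTZ1 alone was called, at -0.70.

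To see whether HEL2 mattered for the change on U34 loss, the same loss with HEL2 present was set beside it. These are 4 other libraries, so the comparisons share no control samples, but they come from 1 fit and share its scaling and its estimate of the spread. Both strains without HEL2 carry its LEU2 marker, so differences that come with HEL2 loss and with LEU2 cannot be told apart in this design. ncs2Δelp6Δ against wild type had 1699 genes called (27.9%). Both comparisons called 1081 genes, 61.6% of the calls without HEL2 and 63.6% of those with it, and 1067 of these went the same way. Across the 6087 genes the log2 fold changes correlated at r = 0.638, as a description over genes that are not independent. This value includes MET17, NCS2 and ELP6, which had extreme changes in both comparisons through the strains used. The interaction, which tests the difference between the changes, was called for 69 genes (1.13%), of which 59 changed more upwards without HEL2 and 10 more downwards. DESeq2 called 97 and 56. Leaving out triple-mutant replicate 1 gave 37 and 5, and leaving out hel2Δ replicate 1 gave 60 and 80, so the number of downward interactions is uncertain.

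Stress genes had the largest interactions among genes at 5 CPM or more. HSP26 rose by 4.74 without HEL2 and by 0.50 with it, an interaction of 4.25 (adjusted p = 8.82e-07), and its libraries stood at 42.7 and 53.1 CPM in wild type and at 67.4 and 67.2 in ncs2Δelp6Δ. DDR2 had a log2 fold change of -0.12 with HEL2 (not called), an interaction of 3.72 (adjusted p = 0.000373). For HSP26 and DDR2 the interaction also holds a lower starting level in hel2Δ than in wild type, where DDR2 stood at 14.0 and 16.8 CPM. Of the 8 small heat shock and aggregate-handling genes 7 had a called interaction, and of 40 general stress genes 18 had one, all upwards. With HEL2 present the general stress list had 5 genes higher and 12 lower and a median of -0.10. In the Hsf1 list 7 of 19 interactions were called, and 13 of its genes rose with HEL2 present as well. SSE2 fell by 0.62 with HEL2 present and RTC3 by 1.24, and both rose without it, with interactions of 2.34 and 2.90.

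In phosphate genes the interaction was downwards for 5 of 26 genes and upwards for PHM8. PHO84 fell by 1.56 with HEL2 present, an interaction of -1.35 (adjusted p = 0.000198), and VTC3 fell by 1.14, an interaction of -1.09. PHO89 was not called with HEL2 present (0.07), an interaction of -2.17 (adjusted p = 0.000821). For all 3 genes the starting level in hel2Δ was above that of wild type, which enters these interactions. PHO89 stood at 7.46 and 6.60 CPM in wild type, PHO84 at 539.7 and 566 and VTC3 at 284 and 291, and SPL2 and PHO12 were likewise higher in hel2Δ than in wild type. In the triple mutant these 5 genes had their lowest mean level of the 4 strains.

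Among the largest changes, falls had fewer called interactions than rises in the edgeR fit of all 8 libraries. The number of downward interactions was uncertain, as given above, so this difference is uncertain too. Of the 90 genes lower past a log2 fold change of 1, 68 also fell with HEL2 present and 7 had a called interaction, with medians of -1.36 without HEL2 and -1.23 with it. Of the 137 higher genes 81 also rose with HEL2 present and 36 had a called interaction, with medians of 1.57 and 0.85. These genes were picked by their value without HEL2, which by itself favours the larger median there. NCS2 and ELP6 are counted in the 90 and the 68, and MET17 in the 137 and the 81. For these genes the shared direction was set by the strains used. No interaction was called among the ribosomal protein, pheromone response, U34 pathway or collision lists. With 1.13% of all genes called, lists of this size hold few or no calls at that share, so this does not show that their changes were alike. In the collision list 4 genes were called higher and 5 lower (18.5%, against 13.8% of all genes) without HEL2. With HEL2 present 5 were called higher and 0 lower. RKR1 had -0.52 without HEL2 and 0.23 with it, an interaction of -0.75 that was not called (adjusted p = 0.0844). In the proteasome list RPN4 alone had one (0.69, adjusted p = 0.0408), with 28 of 36 genes higher and a median of 0.54 with HEL2 present. NDJ1, URA1, IMD2 and LYS1 had changes in both settings whose difference was not called, -3.43 and -3.40 for NDJ1, -2.31 and -2.09 for URA1, 2.68 and 2.23 for IMD2, and 1.63 and 1.72 for LYS1.

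**Figure D4:**
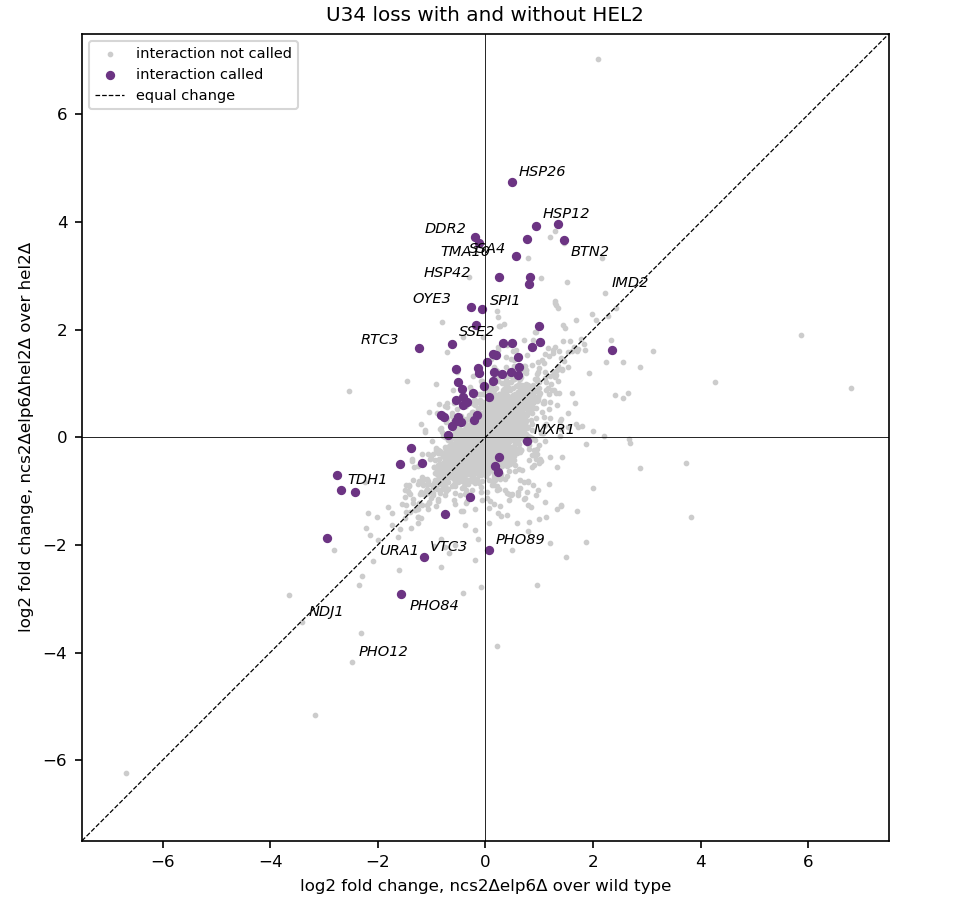
Log2 fold change on U34 loss without HEL2 (vertical axis) against that with HEL2 (horizontal axis), one point per gene tested without MET17 and the deleted genes. Purple points are the genes with a called interaction and the dashed line marks equal change. HSP26 lies at 4.74 against 0.50 and PHO84 at -2.91 against -1.56.

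The upstream regions were then read for 4 motifs on both strands over 500 nt before the start codon. Such matches describe sequence and show no binding. The stress response element CCCCT was found in 50.8% of the genes higher past a log2 fold change of 1, in 20.5% of the lower ones and in 34.5% of all genes tested, and 2 or more copies in 26.9%, 5.13% and 8.34%. HSP12 had 5 copies, DDR2 4, and HSP26 and CTT1 3 each, counting those shown above. The heat shock element was found in 6.92% of the higher genes, 1.28% of the lower and 1.52% of all. BTN2, HSP42, HSP78 and RPN4 each had 2 matches. CACGTG was found in 17.9% of the lower genes, 4.62% of the higher and 6.25% of all, and 6 of the 12 largest falls with an annotated start had it, SPL2 with 4 copies. TGACTC, the core of Gcn4 sites, was found in 16.2% of the higher, 10.3% of the lower and 13% of all genes. The higher and lower genes were chosen from the fit of this comparison, so these shares are given with no test.

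**Figure D5:**
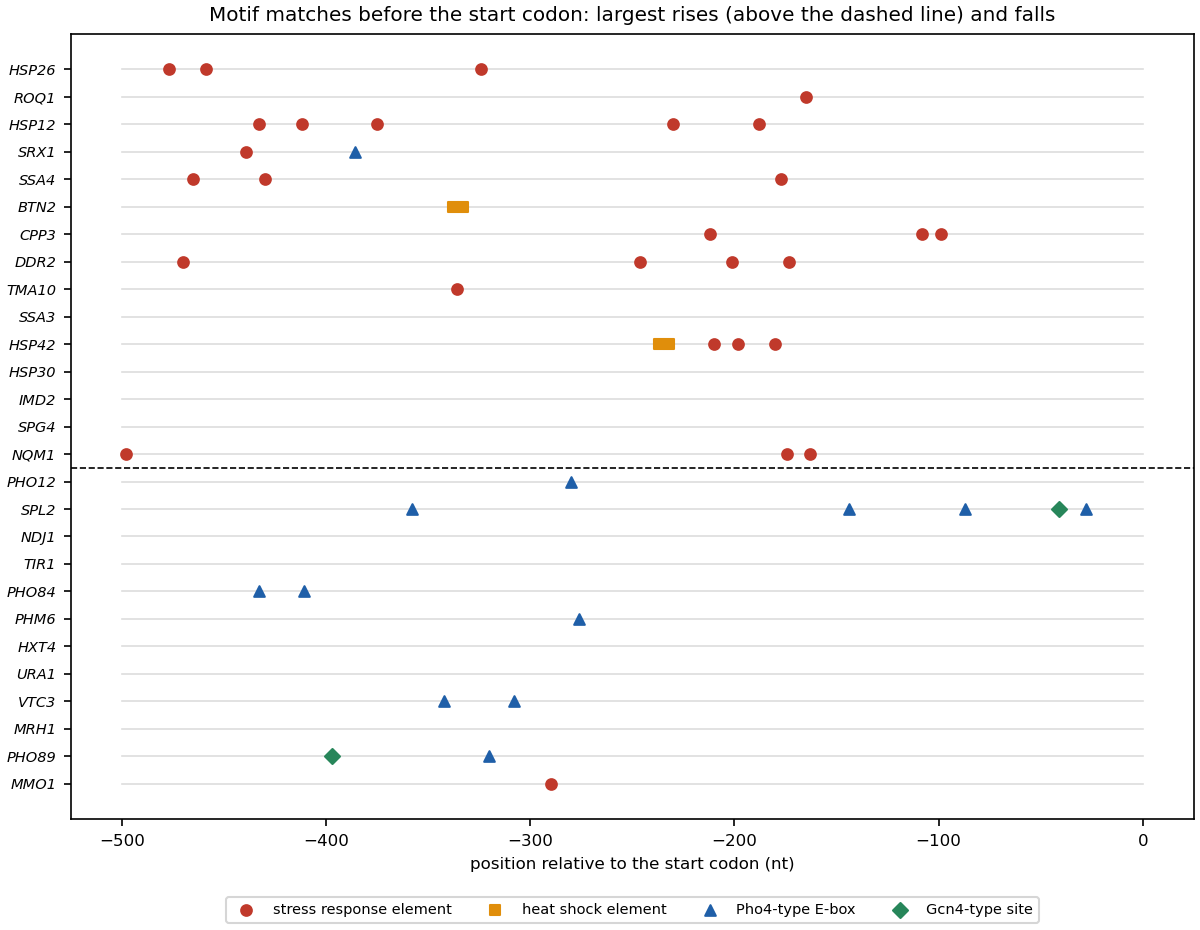
Position of motif matches, in nt relative to the start codon, for the 15 largest rises (above the dashed line) and the 12 largest falls with an annotated start, one line per gene. Circles are the stress response element, squares the heat shock element, triangles the Pho4-type site and diamonds the Gcn4-type site. CACGTG triangles stand in 6 of the 12 falls, and HSP12 has 5 circles.

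The codons of the thiolated tRNAs were counted in the coding sequences. AAA, CAA and GAA together made up a median of 10.8% of codons in genes called higher, 11.8% in genes called lower and 11.4% in genes not called. Their share correlated with the log2 fold change at r = -0.0491 across 5648 genes, against 0.175 for GC content and 0.0118 for the log10 of coding length, as descriptions over genes. Medians by chromosome lay between -0.09 on chromosome II and 0.08 on chromosome VI, over 16 chromosomes.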

How the data were processed

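mRNA of 8 libraries was measured by sequencing. The authors deposited raw integer counts per gene, from reads mapped to coding sequences with no trimming of adaptors. The submitters' processing notes name Bowtie and sacCer3. Libraries were made with a stranded kit. The unique, forward-strand mapping that the methods state for ribosome footprints is not stated for these reads, so their strand and multi-mapping settings are not given in the sources used here. The table had 6337 genes, of which 5804 matched NCBI RefSeq R64 by locus tag, and 237 had a copy of at least 95% identity over 100 nt (BLAST 2.17.0). edgeR 4.0.16 (filterByExpr, TMM, quasi-likelihood F test, two-sided) was fitted to all 8 libraries with 1 mean per strain. Genes were called at a Benjamini-Hochberg adjusted p under 0.05 over 6087 genes. CPM use TMM-scaled totals. The SE is the absolute log2 fold change over the root of F. The test was tested on simulated data. Alternatives were DESeq2 1.42.0, other scalings and filters, a replicate block and leave-one-out fits.

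The genes named were the 15 largest rises and falls with a mean of at least 5 CPM in the higher strain and libraries that do not overlap, the 3 most changed called members of each of 39 lists, the 6 largest interactions each way, and the deleted and marker genes. Some genes selected by this rule are not reported here. Further list members are named as examples chosen after their values were seen. The members and lists were chosen with earlier results of these data known, so the lists carry no test. Library totals were 20523166 to 23941037 counts here, and intervals cover counting error only. The study calls the triple-mutant replicates biological. For hel2Δ it says so of the 2 replicates in its profiling of collided ribosomes. It took mRNA from part of the cells collected for ribosome profiling. No source used here says outright that the hel2Δ mRNA libraries are biological replicates. The p-values measure the spread between these libraries, which may be technical in part. A permutation test of 2 against 2 libraries cannot fall below p = 0.333.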

Additional observations from a re-analysis of the deposited data

Results flagged for a closer look

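The genes below had a change on U34 loss that differed between cells without and with HEL2, by the interaction term of the edgeR fit at an adjusted p under 0.05. Values are interactions on the log2 scale, positive where the change without HEL2 was the more upward one.

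Chaperone and aggregate-handling genes were HSP26 (4.25), SSA4 (2.92), HSP42 (2.73), SSE2 (2.34), BTN2 (2.21), SSA3 (2.15), HSP30 (2.04), HSP78 (1.07), HSP82 (0.89), APJ1 (0.88) and MDJ1 (0.54). General stress genes were DDR2 (3.72), HSP12 (2.98), RTC3 (2.90), TMA10 (2.80), SPI1 (2.45), CTT1 (1.41), XBP1 (1.41) and TSL1 (1.01). Several genes of these groups, HSP26, HSP12 and DDR2 among them, started lower in hel2Δ than in wild type. ROQ1 stood at 2.61, OYE3 at 2.69, RPN4 at 0.69 and the glycolytic gene TDH1, which fell in both settings, at 1.69. TDH1 also started lower in hel2Δ, with a mean of 57.8 CPM against 122 in wild type. Iron genes were LSO1 (3.91) and FIT2 (2.27). LSO1 had a mean of 2.33 CPM in wild type, 0.213 in hel2Δ and 2.98 in the triple mutant, and FIT2 had 158, 52.9 and 226, so hel2Δ stood below wild type in both. Downward interactions were found for PHO89 (-2.17), PHO84 (-1.35), VTC3 (-1.09), PHO81 (-0.82), HTL1 (-0.89), a subunit of the RSC remodeller, and MXR1 (-0.84), a methionine sulfoxide reductase that rose by 0.77 with HEL2 present and was not called without it. PHO89, PHO84 and VTC3 had a higher level in hel2Δ than in wild type. Groups of 2 libraries were too small to look for a library that stands apart.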

How the results depend on the processing

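For 130 named genes over the alternatives, no direction reversed in 1427 pairs of gene and alternative, and 36 calls were lost in 15 genes, 32 of them on leaving out a library (among them YLR041W, TDH1, MF(ALPHA)1, PUT4, SPS1, RKR1, HMG2, ERG20, CCT3, ATP16 and TRM112). The 4 others (PPT1, KRR1, EFT1 and CUE2) were lost with library totals. That scaling gave 1389 genes higher and 521 lower. The replicate block gave 960 higher and 930 lower, with 1727 of the 1754 calls kept, and 51 lower interactions. The deviations of replicate 1 from its strain mean in hel2Δ and in the triple mutant correlated at 0.12 across 6087 genes. No label pairs the replicates of these strains. DESeq2 gave 97 higher and 56 lower interactions, and 1624 of the 1754 calls. Leaving out a library gave 498 to 714 higher and 406 to 711 lower genes. Without hel2Δ replicate 2 there were 547 and 514, and without triple-mutant replicate 1 there were 498 and 406. For the interaction this range was 37 to 60 higher and 5 to 80 lower, with 80 without hel2Δ replicate 1, and 37 and 5 without triple-mutant replicate 1. The lone sample of a strain was then assumed to vary like the others. The cause of these differences was not tested, beyond the fewer samples in fits without a library. Counts of genes past a log2 fold change of 1 and of ncs2Δelp6Δ against wild type stayed within 1.5 times. Over 429 pairs of list and alternative the list median changed sign in 9, none of them in the 12 lists whose median differed from that of all genes by over 0.2. A fit of the interaction on only the libraries compared is not possible, and leave-one-out fits of ncs2Δelp6Δ against wild type were not run.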

Other observations

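Genes outside the lists, named here after their values were seen, also rose in the triple mutant over hel2Δ. UBI4, the polyubiquitin gene, was at 165 and 139 CPM in hel2Δ and at 542 and 490 in the triple mutant, a log2 fold change of 1.76 ± 0.10, and its interaction was called (adjusted p = 0.0408). SLT2, the kinase of the cell wall integrity pathway, was at 74.0 and 82.0 CPM and then at 216 and 213, a log2 fold change of 1.46 ± 0.08. Its paralogue KDX1 rose by 1.73, the yapsin genes YPS3 and YPS6 by 1.08 and 1.69, and the cell wall mannoprotein HPF1 by 1.44. With HEL2 present SLT2 rose by 1.42 and KDX1 by 1.84. GRE2, a methylglyoxal reductase, rose by 1.78 and ALD4, the mitochondrial aldehyde dehydrogenase, by 1.52.

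In pyrimidine synthesis URA2 and URA5 fell by 0.46 and 0.52 and URA10 was not called (0.14). HO, the mating-type endonuclease, fell from 173 and 163 CPM to 51.4 and 43.9, a log2 fold change of -1.82 ± 0.10, and by 2.14 with HEL2 present. LEU1 was at 134 and 128 CPM in hel2Δ and at 119 and 135 in the triple mutant, and was not called. YGL262W had no counts in hel2Δ and 0.739 and 0.889 CPM in the triple mutant. YNL120C had 0.676 and 0.280 CPM in hel2Δ and no counts in the triple mutant. Its systematic name places it beside NCS2 (YNL119W), which is deleted in the triple mutant. Its loss cannot be told apart from that deletion.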
